A study of Mus musculus with 25 samples.

Results

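The cell cycle and proliferation genes described here are 40 genes whose products carry a cell from G1 through DNA replication and mitosis, or mark cells that are doing so. They were taken from a list of names, which uses no measured value but was drawn up with earlier results of these data known, and all 40 were found among the 41388 gene rows of the libraries. Liver RNA was sequenced from 25 C57B/6J mice aged 20 weeks, each library being 1 mouse. The mice were wild type (WT) littermates or a SIRT1 liver-specific knockout (LKO), and had received an AAV8 vector that was empty (EV) or carried NAMPT, the rate-limiting enzyme of NAD+ salvage. The sample titles name this insert, whereas the treatment text of the labels names SIRT1 as the insert, and the titles were followed. In the knockout an albumin-driven Cre removes floxed Sirt1, so the deletion is meant for hepatocytes and the other liver cells keep the gene. The WT littermates also carry floxed Sirt1, without Cre. The groups were chow WT EV (n = 3) and 4 groups fed a western diet (WD) during the 12-week study: WD WT EV (n = 6), WD WT NAMPT (n = 6), WD LKO EV (n = 5) and WD LKO NAMPT (n = 5).

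Adult hepatocytes are almost all quiescent and re-enter the cycle after loss of liver mass or injury. Mitogens induce cyclin D1, whose kinase inactivates RB and frees E2F factors, which switch on cyclin E, the MCM replicative helicase and the enzymes of nucleotide supply. Later, B-MYB and FOXM1 switch on the mitotic genes, and p21 (Cdkn1a) holds cyclin-dependent kinases in check. The transcripts of a whole liver sum hepatocytes with macrophages, lymphocytes and endothelial and stellate cells, any of which can divide, and more cells of a type cannot be told apart from more RNA per cell.

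The libraries held 20166175 to 32937326 counts. Levels are given as CPM (counts divided by the library total and scaled to a common size) after TMM, a normalization that aligns libraries on the bulk of their genes. Hepatocyte markers summed to between 44680 and 74890 CPM in every library. Sirt1 ranged from 7.16 to 11.1 CPM in the 10 libraries labelled LKO and from 7.62 to 10.7 CPM in the 15 WT libraries, so the whole-gene count did not separate the genotypes. Counts of the deleted exons were not analysed here, and LKO therefore means the libraries labelled LKO throughout. Nampt ranged from 46.8 to 77.8 CPM in WD WT NAMPT against 38.3 to 54.1 CPM in WD WT EV, and from 53.9 to 126.6 CPM in WD LKO NAMPT against 46.0 to 75.6 CPM in WD LKO EV. Both pairs of Nampt ranges overlapped. WD WT NAMPT replicates 1 and 2 stood apart from the other libraries for most of the 40 genes. For the comparisons that use them, limma results of the 40 genes are also given without them. Results of other tests and of other gene lists are given with them only.

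The promoters of these genes show which letters they share. RefSeq promoters (build GRCm38.p6, 250 bases before to 50 bases after each start) were at hand for 31 of the 40 genes, as 34 promoters. Both strands were searched for TTTGAA (the core of the CHR element), CCAAT (the NF-Y box), GGGCGG (the SP1 box) and an E2F site written as TTTCCCGC, TTTGGCGC, TTTCGCGC or TTTGCCGC. TTTGAA was present in 50.0% of the 34 promoters and in 17.9% of all 32851 promoters of the table. CCAAT was present in 79.4% against 37.4%, and the E2F letters in 14.7% against 2.26%. TTTGAA and the E2F letters were spread unevenly over the roles, a difference that was not tested. Of 17 genes of the S to M cyclins, mitotic kinases and spindle roles, 12 held TTTGAA and only Cdk1 held the E2F letters. Of the 6 MCM and PCNA genes with a promoter, 4 (Mcm3, Mcm5, Mcm6 and Mcm7) held the E2F letters and only Mcm2 held TTTGAA. The NF-Y box was found in both sets, in 15 of the 17 genes and in 6 of the 6, and so was GGGCGG, in 14 and in 5. GGGCGG was held by 85.3% of the 34 promoters and 35.7% of all promoters. Motifs of 2 kinds overlapped in 1 place among the 34 promoters. A match describes letters and not binding.

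The stretches below belong to genes whose levels are described later, 3 MCM genes and 4 genes of mitosis, and end at the base before the start or, for Ube2c and Cdk1, before the first annotated exon base. Capitals mark the CHR, NF-Y and E2F letters on either strand, and each stretch reads 5′ to 3′ along the gene. They lie at chr8:75109349-75109508 (plus strand, Mcm5), chr1:128359706-128359865 (minus, Mcm6), chr6:88898781-88898940 (minus, Mcm2), chr10:69352939-69353072 (minus, Cdk1), chr2:164769769-164769897 (plus, Ube2c), chr11:99024190-99024349 (minus, Top2a) and chr7:135716380-135716539 (minus, Mki67).
Mcm5: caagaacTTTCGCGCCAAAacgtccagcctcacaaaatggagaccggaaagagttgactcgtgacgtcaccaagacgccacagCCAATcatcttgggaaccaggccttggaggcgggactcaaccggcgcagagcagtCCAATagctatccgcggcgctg
Mcm6: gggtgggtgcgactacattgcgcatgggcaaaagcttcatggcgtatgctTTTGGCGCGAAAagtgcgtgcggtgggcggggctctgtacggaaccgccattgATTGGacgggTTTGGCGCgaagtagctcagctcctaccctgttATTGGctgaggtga
Mcm2: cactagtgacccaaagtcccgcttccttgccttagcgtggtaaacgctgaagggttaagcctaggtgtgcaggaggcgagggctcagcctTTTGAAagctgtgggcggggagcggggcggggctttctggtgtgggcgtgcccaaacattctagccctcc
Cdk1: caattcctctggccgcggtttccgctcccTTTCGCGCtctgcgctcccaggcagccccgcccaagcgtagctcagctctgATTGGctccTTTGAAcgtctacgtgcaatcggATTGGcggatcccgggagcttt
Ube2c: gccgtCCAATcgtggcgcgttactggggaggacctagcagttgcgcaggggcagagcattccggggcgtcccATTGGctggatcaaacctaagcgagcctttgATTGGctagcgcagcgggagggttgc
Top2a: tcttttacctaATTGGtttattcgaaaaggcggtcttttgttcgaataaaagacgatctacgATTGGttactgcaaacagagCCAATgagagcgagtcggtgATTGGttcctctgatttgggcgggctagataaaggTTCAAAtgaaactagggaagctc
Mki67: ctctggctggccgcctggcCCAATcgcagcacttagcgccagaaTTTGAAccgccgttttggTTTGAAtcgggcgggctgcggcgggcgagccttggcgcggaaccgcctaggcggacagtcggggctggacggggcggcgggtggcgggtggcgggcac
In Mcm5 and in Mcm6 the first capital run holds the E2F letters on both strands, overlapping each other, and Mcm6 has a further E2F match nearer its start. Cdk1 carries E2F, CCAAT and TTTGAA letters together, Top2a has 4 CCAAT boxes before TTTGAA on the opposite strand, and Mki67 has 2 copies of TTTGAA.

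In the chow livers many of the mitotic genes had low counts. Of the 40 genes, 16 were above 1 CPM in no chow library. Per kilobase of exon, the highest group median in chow WT EV was that of Pcna, the sliding clamp of DNA polymerases, at 6.55 CPM per kilobase, followed by Tk1, Ccnd2 and Ccnd1 at 4.27, 3.22 and 2.54. In WD WT EV the per-kilobase order was led by Pcna, Cdkn1a, Ccnd1 and Ccnd2 at 8.91, 4.16, 3.85 and 3.0. Plk1, Bub1 and Cdkn3 had no count at all in at least 1 of the 25 libraries, where 3 counts are the limit that a count of 0 allows. All 40 genes passed the filter for testing, of more than 1 CPM in at least 2 libraries, but Bub1, a spindle checkpoint kinase, did so only through WD WT NAMPT replicates 1 and 2, so its difference is not read as support.

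**Figure D1:**
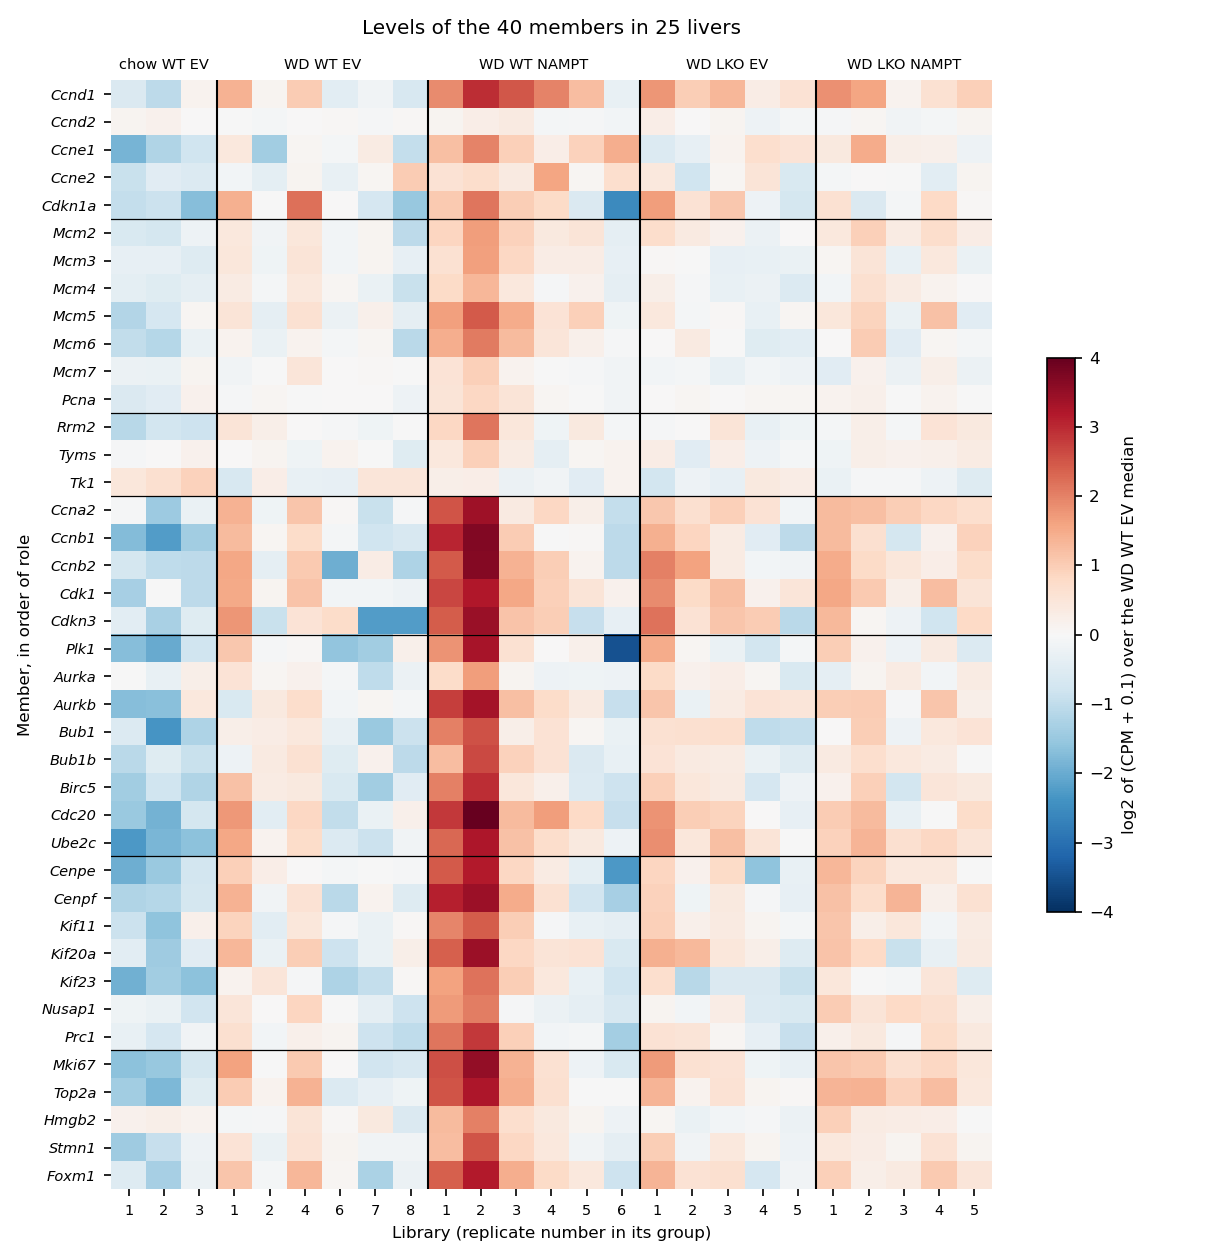
Level of each of the 40 genes (rows, in order of role, lines between roles) in each of 25 livers (columns, by group and replicate number), as log2 of CPM plus 0.1 over the median of WD WT EV. WD WT NAMPT replicate 2 held the highest of 25 levels for 36 genes and replicate 1 the second highest for 31, while replicate 6 was among the lowest 3 livers for 12.

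The first comparison asked how the western diet changed the livers of WT EV mice. Of the 40 genes, 3 rose and 1 fell, against 10.1% of all 14065 genes tested that rose and 12.0% that fell. The tests were limma fits with voom and sample quality weights over all 25 libraries, called at a Benjamini-Hochberg adjusted p of 0.05 or less over all genes tested. Ube2c, Rrm2 and Pcna rose and Tk1 fell. The number called depended on the setting. Limma without sample quality weights, without a filter or with 2 surrogate variables called 0, and both edgeR tests called Ube2c alone. DESeq2 called 4, limma on only the groups compared 10 and limma with the replicate number as a block 29. The median log2 fold change over the 39 genes other than Bub1 was 1.04 against 0.00 over all genes, and 35 of the 39 were positive. At an unadjusted p under 0.05 there were 12 of the 39, or 30.8%, against 35.1% of all genes.

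Ube2c, the ubiquitin-conjugating enzyme that works with the anaphase-promoting complex, stood at 0.165, 0.267 and 0.316 CPM in the 3 chow livers and at 3.71, 1.32, 2.05, 0.779, 0.620 and 1.06 CPM in WD WT EV replicates 1, 2, 4, 6, 7 and 8. The chow levels rest on 4, 6 and 8 counts and the WD levels on 15 to 88 counts, and low counts in these files were more often even than odd. Every WD liver was above every chow liver. The log2 fold change was 2.44 ± 0.87 (SE), limma adjusted p = 0.0449. Of the Ube2c exon bases, 592 of 2600 overlap Tnnc2 on the other strand.

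Rrm2, the regulated subunit of ribonucleotide reductase, averaged 1.67 ± 0.24 CPM (SD, n = 3) in chow and rose to a mean of 3.40 ± 0.62 CPM (SD, n = 6), with a log2 fold change of 1.04 ± 0.33 (SE) and limma adjusted p = 0.0250. The chow range, 1.41 to 1.87 CPM, lay below the WD range, 2.81 to 4.51 CPM. Tk1, the thymidine salvage kinase, went the other way. It was at 19.5, 22.2 and 27.2 CPM in chow and between 9.11 and 20.2 CPM in WD WT EV, and its log2 level fell by 0.59 ± 0.19 (SE), limma adjusted p = 0.0291. The groups overlapped for Tk1. The third enzyme of this role, thymidylate synthase (Tyms), had a log2 fold change of -0.04 ± 0.19 (SE) and was not called.

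Pcna was at 14.3, 15.7 and 24.3 CPM in chow and between 18.5 and 22.4 CPM in WD WT EV. The groups overlapped, since chow replicate 3 was above every WD WT EV liver. The log2 fold change was 0.40 ± 0.13 (SE), limma adjusted p = 0.0237, in a fit in which chow replicate 3 had a quality weight of 0.61 against 1.80 and 2.504 for the other chow libraries. Without chow replicate 1 the value was 0.11 (adjusted p = 0.767) and without replicate 2 it was 0.18 (adjusted p = 0.630).

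In 7 of the 40 genes every WD WT EV liver was above every chow liver, namely Ube2c, Rrm2, Kif23, Cenpe, Ccnb1, Ccne2 and Mcm3. Over all genes tested, 7.66% were above in this way and 8.45% below, and none of the 40 was below. Ccnb1, cyclin B1, the partner of CDK1 in mitosis, was at 0.165, 0.0890 and 0.237 CPM in chow and at 2.03, 0.831, 1.37, 0.733, 0.413 and 0.462 CPM in WD WT EV. These are 4, 2 and 6 counts in chow and 10 to 48 counts in WD WT EV. Its log2 fold change, 2.53 ± 1.08 (SE), was the largest of the 40 and its adjusted p was 0.0932, so it was not called. Mki67, the Ki-67 antigen of cycling cells, had 1.65, 1.83 and 3.31 CPM in chow and 16.6, 5.40, 11.4, 5.45, 3.14 and 3.46 CPM in WD WT EV, a log2 fold change of 1.70 (95% interval 0.14 to 3.26, adjusted p = 0.109). Top2a, topoisomerase II alpha, was at 1.03, 0.757 and 2.05 CPM in chow and between 1.97 and 7.81 CPM in WD WT EV, with a log2 fold change of 1.80 (0.32 to 3.28, adjusted p = 0.0731). For both genes the ranges met only at chow replicate 3, the highest chow liver.

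Cdkn1a was not called either. Its levels were 4.71, 5.07 and 2.80 CPM in chow and 25.1, 9.14, 43.1, 9.35, 5.83 and 3.19 CPM in WD WT EV, and the fitted log2 difference was 1.25 ± 0.70 (SE) with an adjusted p of 0.207. Within WD WT EV the same livers were high for many of the genes. Replicate 1 held the highest level of its group for 19 of the 40 genes and replicate 4 for 15, while replicate 8 held the lowest for 13. In the same 2 livers the summed cholangiocyte markers were 82.2 and 47.2 CPM, against 23.4 to 32.5 CPM in the other 4, and the neutrophil markers 4.85 and 6.05 CPM, against 1.16 to 3.07 CPM. Their part in the levels was not tested. A score of 15 clock genes also divided this group, at -0.53 to -0.61 in replicates 1, 2 and 4 and at 0.24 to 0.75 in replicates 6, 7 and 8, with chow at -1.23 to -2.005. Its part in the result was not tested beyond a fit with the score as a covariate. That fit called 23 of the 40 genes, Bub1 among them, and the share of all genes it called is not given. Leaving out chow replicate 1 or 2 left 0 genes called in limma, with 1 and 2 at an unadjusted p under 0.05, and leaving out WD WT EV replicate 1 or 4 left 2.

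Other lists of the same processes are read against the 10.1% of all genes that rose and the 12.0% that fell. Of 21 tested genes of other DNA replication factors, 5 rose with the diet, led by Gins4 (log2 fold change 0.63 ± 0.13, SE, limma adjusted p = 0.00154). Of 41 tested genes of other mitosis factors, 2 rose, Kif18b and Spag5, both at low levels. Kif18b averaged 0.04 CPM in chow and 0.52 CPM in WD WT EV and was at 0 in some libraries. Spag5 averaged 0.18 CPM in chow and 0.77 CPM in WD WT EV. Of 18 genes of the RB and E2F network 3 rose, among them the E2F family member E2f2 (log2 fold change 1.19). None of 4 other CDK inhibitors passed the test. Of 16 other p53 targets 6 rose and 2 fell, led by Perp, Sesn2 and Ccng1, with log2 fold changes of 0.70, 0.997 and 0.68. Macrophage markers rose for 3 of 11 genes (Cd5l, C1qb and Cd68), and their summed level was 366 to 452 CPM in chow and 441 to 626 CPM in WD WT EV. Nkg7, Lyve1 and Lrat, of the T and NK, endothelial and stellate lists, rose, and Cd79b, Kdr and the hepatocyte genes Cps1 and Tat fell. Nkg7 averaged 0.24 CPM in chow and 0.83 CPM in WD WT EV and was at 0 in some libraries. The part of these cells in the result was not tested.

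**Figure D2:**
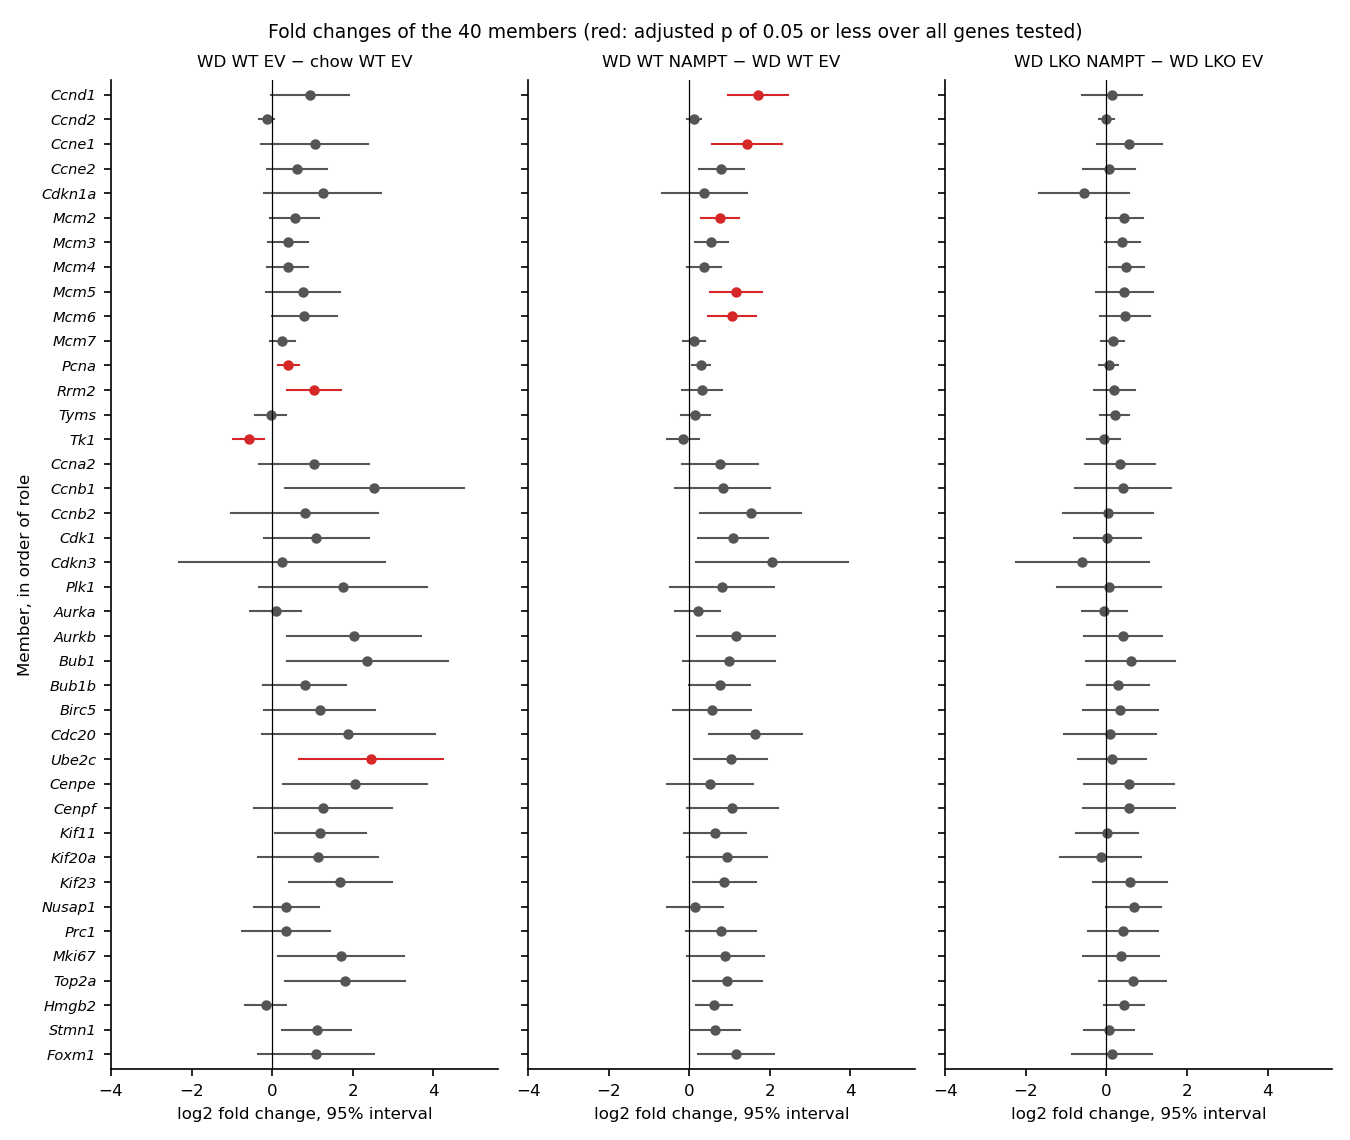
Log2 fold change of each of the 40 genes with its 95% interval in 3 comparisons (western diet in WT EV, NAMPT in WT, NAMPT in LKO), genes in order of role, red where the adjusted p over all genes tested was 0.05 or less. Red points number 4, 5 and 0 from left to right, and the intervals are widest for the mitotic genes in the diet comparison.

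The second comparison asked what NAMPT did in WT livers on the western diet. Here limma called 5 of the 40 genes, all of them higher, against 7.67% of all genes tested that rose and 5.77% that fell. All 5 belong to G1 and the licensing of replication: Ccnd1, Ccne1, Mcm2, Mcm5 and Mcm6. In limma no gene of the roles from the S to M cyclins through the chromatin genes was called, and this depended on the test. The edgeR quasi-likelihood test called 4 genes, none of them in these roles. The edgeR exact test called 11, of which 7 were in these roles, and DESeq2 16, of which 11 were. Limma with a clock-gene score as a covariate called 24, of which 19 were in these roles. All were higher, and the DESeq2 and clock-score counts include Bub1, which is not read as support. Limma called only Ccne1 without sample quality weights, and only Ccnd1 without the filter or with only the groups compared. Library size scaling called 10, of which 2 were in these roles. A fit with 2 surrogate variables called only Cdkn1a, which was lower. The share of all genes called in these alternative fits is not given here, so their counts are not compared with it. Aurkb, Cdc20, Cdk1, Cenpf, Hmgb2 and Prc1 were called by both the exact test and DESeq2. Over the 39 genes other than Bub1 the median log2 fold change was 0.79 against 0.00 over all genes, and 38 were positive, Tk1 being the exception at -0.17. Without NAMPT replicates 1 and 2 the median over these 39 genes was 0.27 against -0.01 over all genes, and 31 were positive.

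Ccnd1, cyclin D1, was at 39.3, 16.1, 29.9, 10.95, 13.5 and 9.33 CPM in WD WT EV replicates 1, 2, 4, 6, 7 and 8 and at 54.8, 115, 83.2, 58.2, 35.0 and 11.9 CPM in WD WT NAMPT replicates 1 to 6. In 4 of 6 NAMPT livers Ccnd1 was above every EV liver, and replicates 5 and 6 lay inside the EV range. The log2 fold change was 1.70 ± 0.36 (SE), or 3.26-fold (95% interval 1.94 to 5.49), limma adjusted p = 0.00994. Without NAMPT replicate 3 it was 1.45 (adjusted p = 0.0558) and without replicates 1 and 2 together 1.46 (adjusted p = 0.0737). Of the 3835 exon bases of Ccnd1, 1100 overlap LTO1 on the other strand, and strand was not stated to be used in counting.

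Ccne1, cyclin E1, was between 0.378 and 1.60 CPM in WD WT EV and at 2.79, 4.93, 2.34, 1.403, 2.31 and 3.34 CPM in the 6 NAMPT livers. Replicate 4 was the only NAMPT liver inside the EV range. The log2 fold change was 1.44 ± 0.42 (SE), limma adjusted p = 0.0270. The close relative Ccne2 was not called, with a log2 fold change of 0.79 ± 0.27 (SE) and adjusted p = 0.0539.

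Mcm6, Mcm5 and Mcm2 encode subunits of the 6-membered helicase that is loaded at replication origins in G1. Mcm6 was between 3.65 and 8.69 CPM in WD WT EV and at 21.6, 33.4, 18.9, 10.99, 9.14 and 7.54 CPM in NAMPT replicates 1 to 6. Only replicate 6 was inside the EV range. The log2 fold change was 1.06 ± 0.29 (SE), limma adjusted p = 0.0203. Mcm5, with 12.98, 22.8, 11.7, 6.04, 8.05 and 3.61 CPM against 3.17 to 6.40 CPM, had a log2 fold change of 1.16 ± 0.32 (SE), limma adjusted p = 0.0209. Mcm2, with 10.7, 18.8, 11.2, 7.76, 8.32 and 4.53 CPM against 2.77 to 8.10 CPM, had one of 0.76 ± 0.23 (SE), limma adjusted p = 0.0304. Mcm5 and Mcm6 are among the genes with E2F letters shown above, and Mcm2 is not. Without NAMPT replicates 1 and 2 none of these 4 genes was called, with log2 fold changes of 1.26 for Ccne1, 0.74 for Mcm6, 0.87 for Mcm5 and 0.57 for Mcm2 and adjusted p between 0.117 and 0.154. The other 3 subunits were not called, with log2 fold changes of 0.54 ± 0.20 (SE) for Mcm3, 0.37 ± 0.21 (SE) for Mcm4 and 0.12 ± 0.13 (SE) for Mcm7. Pcna was at 30.7, 38.1, 30.4, 22.7, 21.1 and 19.3 CPM against 18.5 to 22.4 CPM, and its log2 difference of 0.29 ± 0.11 (SE) missed the threshold at an adjusted p of 0.0846.

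The mitotic genes differed widely between the NAMPT livers. Mki67 was at 32.96, 63.0, 14.3, 8.26, 4.66 and 3.50 CPM in NAMPT replicates 1 to 6, from 11.6 times the WD WT EV median in replicate 2 to 0.645 times in replicate 6. Replicates 1 and 2 were above every EV liver and the other 4 lay within the EV range. The log2 fold change was 0.89 (95% interval -0.06 to 1.85, adjusted p = 0.194). Top2a was at 17.1, 28.2, 8.08, 4.56, 2.87 and 2.86 CPM (log2 fold change 0.94, adjusted p = 0.129). Cdk1, the kinase that drives mitotic entry, was at 7.56, 10.9, 3.34, 2.18, 1.60 and 1.24 CPM against 0.924 to 3.29 CPM (log2 fold change 1.08, adjusted p = 0.0852). Ccnb1 was at 7.18, 11.4, 1.67, 0.780, 0.820 and 0.323 CPM against 0.413 to 2.03 CPM (log2 fold change 0.83, adjusted p = 0.339). Without replicates 1 and 2 the log2 fold changes were 0.27 for Mki67, 0.37 for Top2a, 0.59 for Cdk1 and 0.09 for Ccnb1, none of them called.

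**Figure D3:**
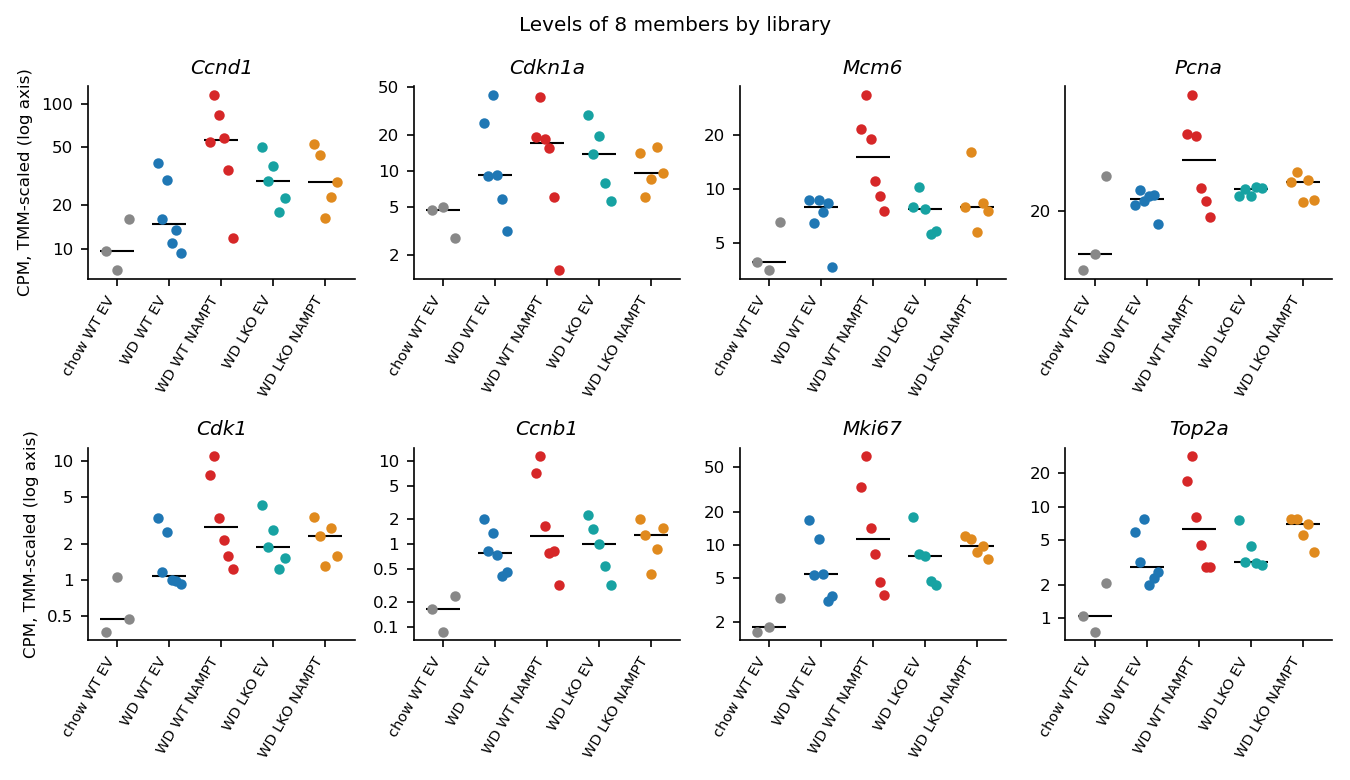
Levels of 8 genes in each liver (points, TMM-scaled CPM on a log axis) by group, with the group median as a line. For Mki67, Cdk1, Ccnb1 and Top2a the 2 highest points of WD WT NAMPT stand above all others, whereas for Ccnd1 4 of the 6 NAMPT livers are above every WD WT EV liver.

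The order of the NAMPT livers was nearly the same across the 40 genes. Within the group, replicate 2 was highest for 38 genes, replicate 1 second for 34, replicate 3 next for 30 and replicate 6 lowest for 32. Of the 25 livers, replicate 2 was highest for 36 genes, the exceptions being Ccnd2, Ccne2, Cdkn1a and Tk1. The size of the step differed between the roles, a difference that was not tested. In replicate 2 the summed level of the S to M cyclins, Cdk1 and Cdkn3 was 13.999 times the WD WT EV median, that of the mitotic kinases, checkpoint and APC genes 9.01 times, that of the kinetochore and spindle genes 8.54 times, that of the MCM and PCNA genes 2.69 times and that of the nucleotide supply genes 1.79 times. In replicate 1 the same sums were 7.79, 4.07, 5.54, 1.77 and 1.27 times. In replicate 6 they were 0.72, 0.67, 0.55, 0.87 and 1.05 times. The sum of the G1 cyclins and Cdkn1a was 4.36 times in replicate 2, 2.33 times in replicate 1 and 0.88 times in replicate 6. The sum of the chromatin, tubulin and regulator genes reached 142 CPM in replicate 2, against a WD WT EV median of 17.2 CPM. Cdc20, the activator of the anaphase-promoting complex, had the largest step of any of the 40 genes, 21.2 times the WD WT EV median in replicate 2, at 23.3 CPM.

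**Figure D4:**
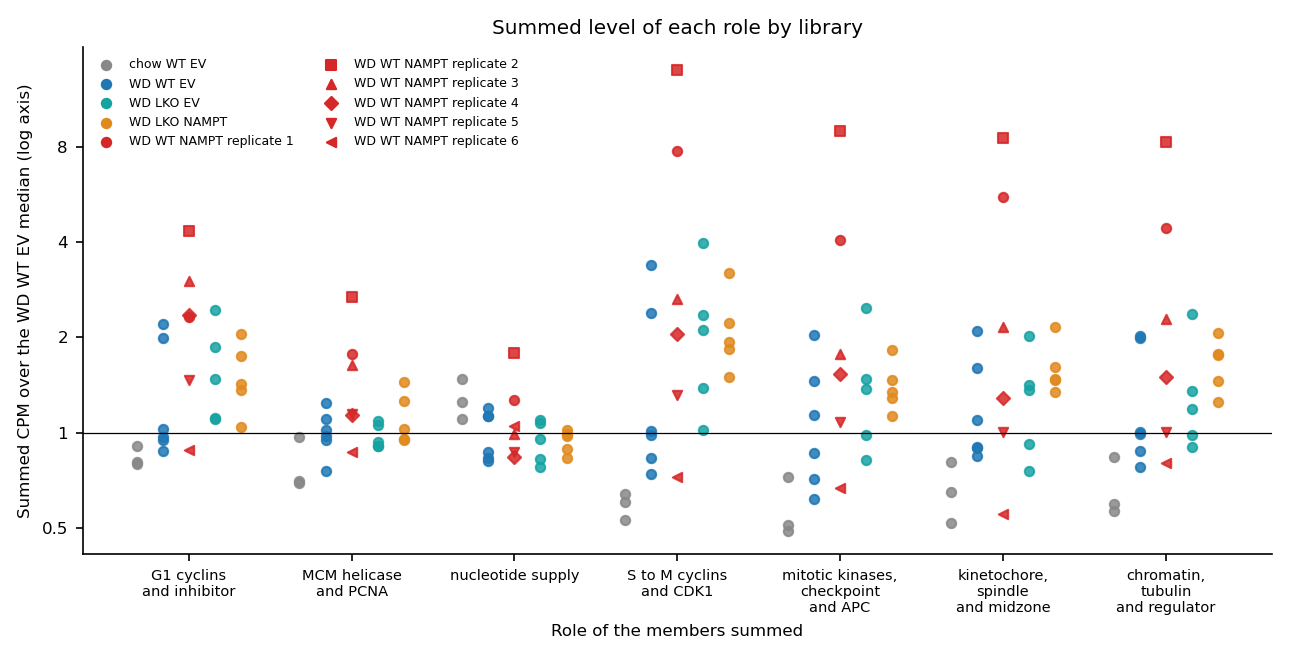
Summed CPM of the genes of each role in each liver, divided by the median of WD WT EV (log axis), by group, with WD WT NAMPT replicates marked by shape. Replicates 2 and 1 are the 2 highest points in all 4 roles from the S to M cyclins on the right, reaching 13.999 and 7.79 times, while the nucleotide supply genes stay between 0.78 and 1.79 times in the western diet groups.

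Among the G1 genes Cdkn1a and Ccnd1 were highest in replicate 2 and lowest in replicate 6, and others departed from the order. Ccnd1 was above every EV liver in replicate 4, where the mitotic kinase sum was 1.53 times the EV median. Ccne1 was second highest in replicate 6, the liver that was lowest for 32 genes. Cdkn1a was at 19.1, 41.5, 18.4, 15.7, 6.15 and 1.51 CPM, and was not called (log2 fold change 0.37 ± 0.51, SE, adjusted p = 0.668). Replicate 6 was the lowest of all 25 livers for Cdkn1a and had no Plk1 count.

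No gene of the 40 kept the 2 groups apart. In each of them the ranges of WD WT NAMPT and WD WT EV overlapped. Over all genes tested, 0.37% had every NAMPT liver above every EV liver. The number of the 40 genes called moved with single livers, and is given without the share of all genes called in each fit. It was 0 without NAMPT replicate 3 (9 at an unadjusted p under 0.05), 1 without NAMPT replicate 2 or without EV replicate 2 or 6, 22 without NAMPT replicate 5, 13 without replicate 6 and 9 without replicate 4 or without EV replicate 4. It was 0 of 39 without NAMPT replicates 1 and 2 together. At an unadjusted p under 0.05 there were 19 of these 39 with all livers, or 48.7%, against 30.3% of all genes. Without the 2 livers there were 7 of the 39, or 17.9%, against 21.2% of all genes. With those 2 livers left out the NAMPT group mean was above the EV mean for 29 of the 40 genes, against 39 with all livers. Both counts include Bub1, which is not read as support. The quality weights of NAMPT replicates 1 to 6 were 0.51, 0.40, 1.62, 1.85, 0.92 and 0.34.

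Markers of macrophages were high in NAMPT replicates 1 to 3, and other lists shared these livers in part. The 11 macrophage markers summed to 1227, 1180, 1243, 863, 708 and 410 CPM in NAMPT replicates 1 to 6 and to 441 to 626 CPM in WD WT EV, and 8 of the 11 rose, led by Csf1r, Lyz2 and Cd68 (log2 fold changes 0.64, 1.14 and 0.995). No macrophage marker was at 0 in any library. Replicate 3 held as much macrophage signal as replicates 1 and 2 and a mitotic kinase sum of 16.3 CPM against 37.5 and 83.0 CPM. Stellate cell markers rose for 3 of 5 genes (Pdgfrb, Des and Col1a1), neutrophil, T and NK cell and endothelial markers for 1 gene each (S100a9, Cd2 and Pecam1), and 1 of 7 hepatocyte markers, Asgr1, fell. The neutrophil sum was 12.6, 15.8, 6.85, 15.5, 3.39 and 1.401 CPM in NAMPT replicates 1 to 6, against 1.16 to 6.05 CPM in WD WT EV. The stellate sum was 223, 319, 241, 260, 236 and 153 CPM, against 168 to 230 CPM, and the erythroid sum was 349, 406, 315, 776, 732 and 1241 CPM, lowest in replicates 1 to 3. The B and plasma cell sum was 6.11, 6.08, 3.31, 3.90, 3.21 and 4.20 CPM, against 2.46 to 4.54 CPM in WD WT EV, and so was highest in replicates 1 and 2. The T and NK cell sum was 8.82, 8.72, 9.86, 6.16, 6.53 and 5.49 CPM, against 3.80 to 9.08 CPM. No B and plasma cell, erythroid or cholangiocyte marker passed the test. Among the defining neutrophil markers Ly6g, Ngp and Camp were at 0 in some libraries. So was Cd2, which averaged 0.71 CPM in WD WT NAMPT and 0.30 CPM in WD WT EV. Of 15 clock genes 5 fell, led by Arntl, Nfil3 and Clock. The part of these cells and of the clock genes in the result was not tested.

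**Figure D5:**
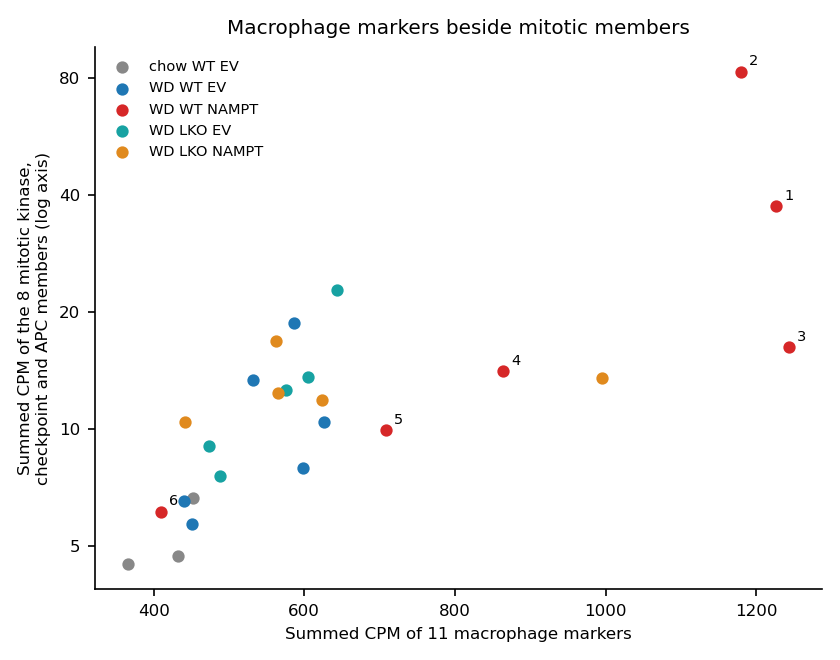
Summed CPM of 11 macrophage markers (horizontal) beside the summed CPM of the 8 mitotic kinase, checkpoint and APC genes (vertical, log axis) in each of 25 livers, coloured by group, with WD WT NAMPT replicate numbers beside the points. Replicates 1, 2 and 3 share a macrophage sum of 1180 to 1243 CPM, and their mitotic sums are 37.5, 83.0 and 16.3 CPM.

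Related genes outside the 40 are read against the 7.67% of all genes that rose with NAMPT in WT and the 5.77% that fell. Rrm1, the large subunit of ribonucleotide reductase, was the only one of 21 replication genes to rise (log2 fold change 0.44 ± 0.14, SE, limma adjusted p = 0.0395). Cep55, which acts in the last step of cell separation, was the only one of 41 mitosis genes (log2 fold change 1.46, limma adjusted p = 0.04998). In the RB and E2F network Rbl1 and Myc rose, 2 of 18 genes, with log2 fold changes of 0.78 and 1.26. Cdkn2c, the p18 inhibitor of the cyclin D kinases, rose by 0.94 on the log2 scale, 1 of 4 other CDK inhibitors. Of 16 other p53 targets 3 rose and 1 fell. These calls include NAMPT replicates 1 and 2, and results without them are not given for these lists.

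The third comparison asked the same of NAMPT in LKO livers. None of the 40 genes was called by limma, edgeR or DESeq2, against 0.00711% of all genes tested, or 1 gene, in limma. At an unadjusted p under 0.05 there were 2 of the 40, or 5.0%, against 9.63% of all genes. These were Mcm4 with a log2 fold change of 0.49 (95% interval 0.05 to 0.93, adjusted p = 0.458) and Nusap1, a spindle protein, with 0.68 (0.00 to 1.36, adjusted p = 0.518). Mcm2 was next at 0.45 (-0.01 to 0.91, adjusted p = 0.532). The median over the 39 genes other than Bub1 was 0.21 against 0.02 over all genes, and 33 of the 39 were positive. The 5 LKO NAMPT livers lay closer together than the 6 WT NAMPT livers. Mki67 was at 11.9, 11.2, 8.59, 9.81 and 7.43 CPM in WD LKO NAMPT and at 17.9, 8.37, 7.98, 4.75 and 4.36 CPM in WD LKO EV, and the groups overlapped. Ccnd1 was at 53.05, 44.4, 16.3, 22.6 and 28.8 CPM against 50.5, 29.5, 37.2, 18.1 and 22.3 CPM, a log2 fold change of 0.14 (-0.60 to 0.88). Macrophage markers summed to 995, 562, 441, 566 and 624 CPM in WD LKO NAMPT and to 474 to 644 CPM in WD LKO EV. No marker of any list was called. All 5 cholangiocyte markers had negative fold changes (median log2 fold change -1.12, 3 of 5 at an unadjusted p under 0.05), and their sum was 60.4, 52.4, 74.3, 25.4 and 34.2 CPM in WD LKO EV replicates 1 to 5 against 32.7 to 45.9 CPM in WD LKO NAMPT. Their part in the result was not tested.

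Whether the response to NAMPT differed between LKO and WT was tested as an interaction. None of the 40 genes passed in limma, edgeR or DESeq2, and 0.00711% of all genes tested did in limma. Only 2 of the 40 had an unadjusted p under 0.05, or 5.0%, against 21.2% of all genes. The smallest p was that of Ccnd1, whose log2 response to NAMPT was lower in LKO by 1.56 (interaction -1.56, 95% interval -2.62 to -0.51, adjusted p = 0.102). It was called without WT NAMPT replicate 6 at an adjusted p of 0.0394, where 4.53% of all genes were called, and its adjusted p reached 0.231 when other single livers were left out. Cdkn3, a phosphatase of CDKs, and Cdc20 followed with interactions of -2.66 ± 1.22 and -1.55 ± 0.79 (SE), adjusted p = 0.209 and 0.258. Of the 39 interactions other than that of Bub1, 33 were negative, with a median of -0.47 against -0.01 over all genes. Without WT NAMPT replicates 1 and 2, 2 of 39 genes (5.13%) had an unadjusted p under 0.05 against 16.1% of all genes. There were then 21 negative interactions of 39, the median was -0.06 against -0.01, and Ccnd1, Cdkn3 and Cdc20 stood at -1.34, -1.92 and -1.05, none of them called.

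The genotypes were compared under each vector. With EV, none of the 40 genes was called between LKO and WT by limma, edgeR or DESeq2, against 0.00711% of all genes tested in limma, and 1 of 40, or 2.5%, had an unadjusted p under 0.05 against 6.33% of all genes. Ccnd1 was the nearest, with a log2 fold change of 0.80 (95% interval 0.05 to 1.54, adjusted p = 0.761), followed by Cdkn3 at 1.76 (-0.15 to 3.67) and Mcm7 at -0.21 (-0.50 to 0.07). WD LKO EV replicate 1 held the highest level of its group for 31 of the 40 genes. No marker was called between LKO and WT with EV, and 3 of 5 cholangiocyte and 3 of 5 erythroid markers had an unadjusted p under 0.05, with median log2 fold changes of 0.52 and 0.75. With NAMPT, again none of the 40 was called by the same tools, against 4.18% of all genes that were higher in LKO and 3.78% that were lower. At an unadjusted p under 0.05 there were 3 of the 40, or 7.5%, against 28.6% of all genes. Without WT NAMPT replicates 1 and 2 there were 2 of 39, or 5.13%, against 20.999% of all genes. The median log2 fold change over the 39 genes other than Bub1 was -0.33 with all livers and 0.03 without those 2, against -0.01 and 0.00 over all genes. Ccne2 was the nearest, averaging 3.14 ± 0.41 CPM (SD, n = 5) in WD LKO NAMPT against 5.55 ± 2.27 CPM (SD, n = 6) for the WT NAMPT livers. Its log2 fold change was -0.82 ± 0.28 (SE), adjusted p = 0.0679, and it was called without WT NAMPT replicate 5, where 13.9% of all genes were called in either direction. Mcm5 and Ccnd1 followed at -0.67 and -0.77, adjusted p = 0.145 and 0.162, and Ccnd1 was called without WT NAMPT replicate 6, at -0.97 (adjusted p = 0.0467), where 16.3% of all genes were called. In the same comparison Rb1, the retinoblastoma gene, was higher in LKO (log2 fold change 0.38, limma adjusted p = 0.0406), and 3 of 11 macrophage markers were lower, Csf1r, Lyz2 and Marco. Among other marker lists 1 gene each of hepatocytes (Tat), cholangiocytes (Sox9) and stellate cells (Pdgfrb) was lower and 1 of erythroid cells (Hbb-bs) was higher. The group mean was lower in LKO for all 40 genes, Bub1 included, with every liver, and for 15 of 40 without WT NAMPT replicates 1 and 2. Without those 2 livers the log2 fold changes of Ccne2, Mcm5 and Ccnd1 were -0.82, -0.39 and -0.53, none of them called.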

How the data were processed

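Liver RNA of 25 mice was sequenced after poly-A selection, and the authors deposited for each library the counts of reads per gene, with CPM and RPKM columns beside them. Per the study's methods, single reads were aligned with STAR to Ensembl release 76 and unambiguous reads counted with featureCounts. The submitters' processing notes name STAR 2.5.1a, featureCounts 1.4.6-p5 and build GRCm38. The deposited CPM and RPKM follow from the deposited counts and were not used in the tests. Groups came from the sample titles, and the insert was taken as NAMPT, although the treatment text of the labels names SIRT1. The 40 genes and all other gene lists were chosen with earlier results of these data known.

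Genes above 1 CPM in at least 2 libraries were kept (14065), and 4 rRNA genes were left out. Counts were scaled by TMM (edgeR 4.0.16) and fitted with voom and sample quality weights in limma 3.58.1 (R 4.3.3), with 1 mean per group over all 25 libraries, after the study's methods. The 6 comparisons were tested, with Benjamini-Hochberg adjustment over all genes and a threshold of 0.05. Alternatives were edgeR quasi-likelihood and exact tests, DESeq2 1.42.0, other weights, scaling, filters and groups, a replicate block, 2 surrogate variables (sva 3.50.0), a score of 15 clock genes and each library left out in turn. In each comparison the called genes, up to 10, were named with full statistics, or the 3 with the smallest p where none was called. Mki67, Top2a, Cdk1, Ccnb1, Ccnd1, Cdkn1a, Pcna and Mcm6 were given in any case. In other lists up to 3 called genes were named.

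Library totals ran from 20166175 to 32937326 counts. Of gene counts from 1 to 20, 63.4% were even (44695 values of 2 against 25857 of 1), so low counts cannot be read as independent single reads, and limits at a count of 0 cover counting error only. Counting did not state the use of strand, and 16 of the 40 genes overlap another gene.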

Additional observations from a re-analysis of the deposited data

Results flagged for a closer look

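In 108 checks, of the levels of the named genes and of each role's sum in groups of 5 or 6 livers, 7 values stood far from the rest of their group, and chance flags about 1 in 20 such groups. In WD LKO NAMPT replicate 2, Mcm6 was at 16.01 CPM against 5.71 to 8.33 CPM in the other livers of the group, and Ccne1 was at 3.42 CPM against 0.984 to 1.54 CPM. In WD WT NAMPT replicate 2, Cdc20 was at 23.3 CPM against 0.539 to 8.48 CPM, and Rrm2 was at 14.4 CPM against 2.81 to 5.73 CPM. Ccne2 was at 9.94 CPM in WD WT NAMPT replicate 4, against 3.47 to 5.42 CPM, and at 6.84 CPM in WD WT EV replicate 8, against 2.49 to 3.56 CPM. Mcm7 was at 18.4 CPM in WD WT EV replicate 4, against 11.8 to 13.4 CPM. Of the Ccne2 exon bases, 609 of 3495 overlap Ints8 on the other strand.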

How the results depend on the processing

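For NAMPT in WT, where 5 of the 40 genes were called, the edgeR exact test called 11, DESeq2 16, scaling by library size alone 10 and the clock-gene score as a covariate 24, all higher. A fit with no sample quality weights called 1, with no filter on low counts 1 and with only the groups compared 1. With 2 surrogate variables 1 gene was called, and it was lower. Without WD WT NAMPT replicates 1 and 2 together, an alternative chosen after seeing the data, 0 were called. For the western diet in WT EV, where 4 were called, the edgeR quasi-likelihood test called 1, the exact test 1, no sample quality weights 0, no filter 0, 2 surrogate variables 0, a mean CPM of at least 1 called 7, only the groups compared 10, the replicate block 29 and the clock-gene score 23. For the interaction the clock-gene score called 1. With each library left out in turn the calls ranged from 0 to 22 for NAMPT in WT, from 0 to 6 for the diet, from 0 to 1 for LKO with NAMPT and for the interaction, and were 0 for NAMPT in LKO and LKO with EV. Ccnd1 in LKO with NAMPT reversed to 0.072 with 2 surrogate variables. The cause of these changes was not tested. The counts are given without the share of all genes called in each setting. Bub1, not read as support, is among the genes counted in some settings. Of the 5 genes called for NAMPT in WT, Ccnd1 stayed called in 11 of 12 fits without 1 library and Mcm2 in 6. Ccnd1 was not called without sample quality weights, where Ccne1 was the only call. It was also not called with 2 surrogate variables or without WD WT NAMPT replicates 1 and 2 together.

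The replicate numbers are those of different mice, and the samples were not treated as pairs. The deviations of same-numbered libraries correlated between -0.33 and 0.37, which cannot exclude a shared batch. The clock-gene score, divided by number in WD WT EV, was -0.60 and -0.44 in WD LKO EV replicates 1 and 2. It was 0.50 to 0.87 in WD LKO EV replicates 3 to 5. Whether libraries shared a batch was not tested. For NAMPT in WT the replicate block called 5 genes, Ccnd1, Ccne2, Mcm6, Ccnb2 and Cdc20. Ccne1, Mcm2 and Mcm5 were no longer called.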
